A study of Mus musculus with 6 samples.

Results

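The genes described here are the PGC-1 coactivators (*Ppargc1a*, *Ppargc1b* and *Pprc1*), the estrogen-related receptors or ERRs (*Esrra*, *Esrrb* and *Esrrg*) and 4 factors of mitochondrial biogenesis (*Nrf1*, *Gabpa*, *Tfam* and *Tfb2m*). They were taken by symbol as the partners and paralogs of *Ppargc1a*, and all 10 were found among the 24532 genes of the deposited table. RNA-seq was performed on gastrocnemius (GAS) muscle, a mixed hind limb muscle that is mostly fast, of 20-week-old C57BL/6 mice, which the methods give as males. The paper's reporting summary lists a *Sirt6* flox line of mixed strain background, so a uniform background is not certain. WT mice were *Sirt6* flox/flox and KO mice were *Myl1-Cre*; *Sirt6* flox/flox, so both groups carried the floxed alleles and only the KO group carried the Cre. There were 3 libraries per group and no treatment. The *Myl1* promoter drives Cre chiefly in postmitotic fast fibers, so slow fibers and the other cells of the muscle may keep *Sirt6*. According to the paper, this Cre begins to act in the embryo, as myoblasts differentiate.

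PGC-1 proteins do not bind DNA themselves. They are recruited by transcription factors such as the ERRs, NRF1 and GABPA, and these factors bind genes of the respiratory chain and of the machinery that copies and transcribes mitochondrial DNA (mtDNA). In skeletal muscle *Ppargc1a* is known for its induction by contraction, fasting and cAMP signalling and for its high level in oxidative fibers.

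*Sirt6* went against the labels. Its normalized CPM (the count scaled to library size after TMM) was 2.77, 2.23 and 2.88 in WT and 7.81, 7.44 and 6.68 in the KO-labelled libraries, a log2 fold change of 1.48 (SE 0.17, edgeR's quasi-likelihood test, Benjamini-Hochberg adjusted p = 0.0113). *Myl1*, the locus that carries Cre, did not pass (log2 fold change -0.05, SE 0.28, adjusted p = 0.916). Counts per gene do not separate the deleted exons from the rest, so the groups are named by their labels throughout, and each direction rests on those labels. Total counts lay between 44845763 and 63016899. WT library 3 stood apart from the other WT libraries in slow-fiber genes, and the library labelled KO 2 stood apart from the other KO-labelled ones. *Myh7*, the slow myosin heavy chain, was at 1138, 958 and 21.7 CPM in WT and at 100.1, 720.3 and 163 in the KO-labelled libraries. Muscle markers were abundant in every library, with a summed level of 6 genes between 123951 and 208626 CPM.

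*Ppargc1a* was the member that differed most. It fell 9.70-fold in the KO-labelled libraries (95% interval 3.63 to 25.9), and the estimates of the other 9 members were smaller: *Tfb2m* fell 1.53-fold, *Gabpa* fell 1.28-fold, and the remaining 7 did not pass the test. All 10 members passed edgeR's filter on low counts. At an adjusted p under 0.05, 3 members were lower and 0 higher, while 8.39% of the 13801 genes tested were lower and 7.85% higher. No member was higher at an unadjusted p under 0.05 or by DESeq2 either. Past a 2-fold change with an unadjusted p under 0.05, *Ppargc1a* alone was lower, against 4.69% of all genes. The median log2 fold change was -0.30 over the members and -0.02 over all genes tested. In 5 members (3 lower and 2 higher) no value of one group fell within the range of the other, as in 40.0% of all genes.

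**Figure D1:**
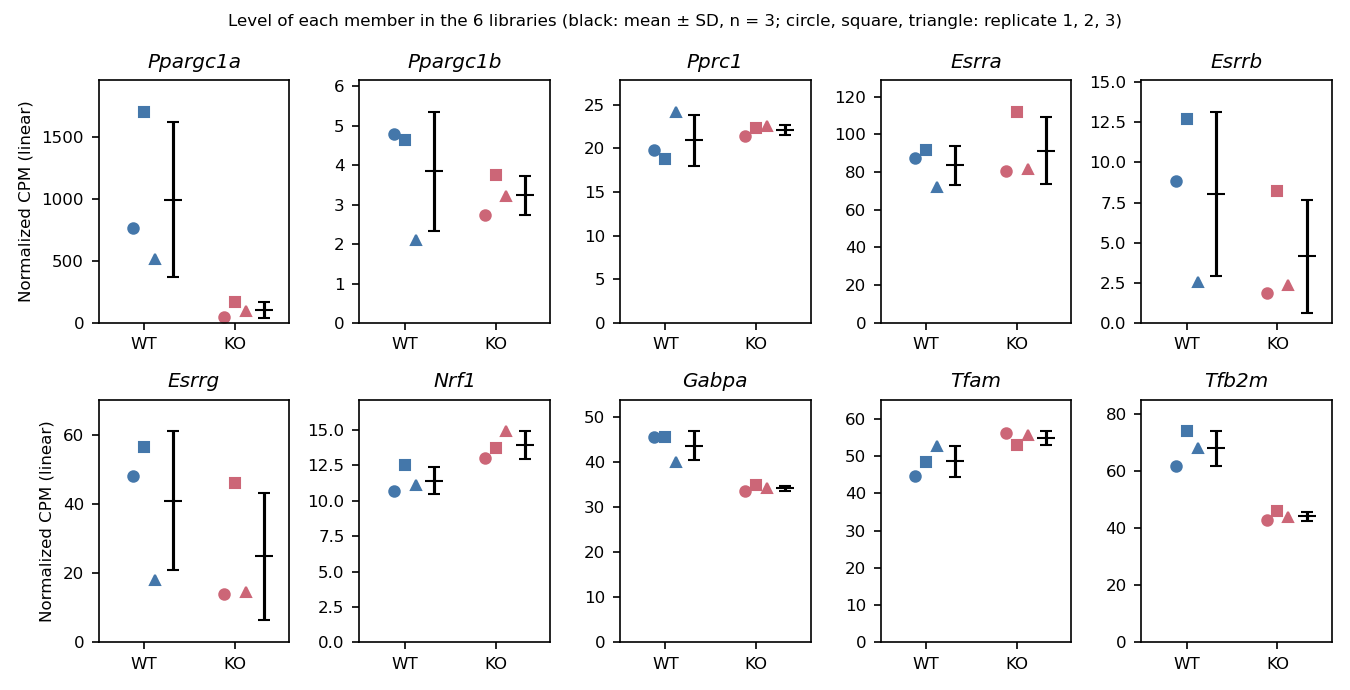
Normalized CPM (linear axis, from 0) of each of the 10 genes in the 3 WT and 3 KO-labelled libraries; circles, squares and triangles are replicates 1, 2 and 3, and black marks are the mean ± SD. *Ppargc1a*, *Gabpa* and *Tfb2m* were lower without overlap, *Nrf1* and *Tfam* were higher without overlap, and the other 5 genes overlapped.

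*Ppargc1a* encodes PGC-1α, the family member induced by exercise. Its normalized CPM was 764, 1703 and 515 in WT against 45.6, 169.7 and 92.2 in the KO-labelled libraries. The highest KO-labelled library was thus below the lowest WT library, although the level varied within each group, with WT 2 and KO 2 the highest of their groups. The mean was 994 ± 626 (SD, n = 3) against 102 ± 62.7 (SD, n = 3), a log2 fold change of -3.28 (SE 0.61, adjusted p = 0.0186, edgeR). Among the 13801 genes it was in place 32 from the largest decrease, and 7 of the genes above it had a WT mean over 10 CPM. The call depended on single libraries. The adjusted p was 0.0553 without WT 1, 0.0553 without WT 2, 0.0676 without the library labelled KO 1 and 0.0861 without that labelled KO 3, with log2 fold changes from -3.84 to -2.64 over the 6 such fits. In whole muscle, fewer cells of a type and less RNA per cell cannot be told apart.

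*Ppargc1b* encodes PGC-1β, the closest paralog of PGC-1α, which also drives mitochondrial genes. It was low, at 4.79, 4.65 and 2.11 CPM in WT and 2.75, 3.75 and 3.23 in the KO-labelled libraries. All KO-labelled values lay inside the WT range. The log2 fold change was -0.24 (SE 0.32, 95% interval -1.0 to 0.51, adjusted p = 0.624), so the interval reached a 2-fold decrease but not the change of *Ppargc1a*. Without WT 3 the log2 fold change was -0.54 (adjusted p = 0.0685).

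*Pprc1* encodes PRC, the most distant member of the family, known for its response to serum. Its levels of 19.8, 18.8 and 24.2 CPM in WT enclosed the 21.4, 22.3 and 22.6 of the KO-labelled libraries. The log2 fold change was 0.08 (SE 0.12, 95% interval -0.21 to 0.37, adjusted p = 0.682). Its exons share 177 bases with *Ldb1* on the opposite strand, whose log2 fold change was 0.57, and the strand setting of the counting is not given in the sources used here. The part of these reads in the result was not tested.

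Since the deposited TPM values are scaled to gene length and to a fixed sum per library, they set the family members side by side. *Ppargc1a* was at 286, 598 and 154 TPM in WT and at 14.8, 52.3 and 28.3 in the KO-labelled libraries. *Pprc1* was between 8.06 and 9.04 TPM in all 6 libraries and *Ppargc1b* between 1.11 and 3.14. *Ppargc1a* therefore made up 95.9%, 98.2% and 93.9% of the summed TPM of the 3 coactivators in WT and 59.4%, 83.3% and 73.4% in the KO-labelled libraries (exact permutation test, two-sided, p = 0.1, which is the floor for 3 libraries against 3). The share of *Pprc1* was 3.04%, 1.32% and 5.40% in WT against 34.3%, 13.5% and 22.1%. The sum of the 3 genes was 298, 609 and 164 TPM in WT and 24.9, 62.8 and 38.6 in the KO-labelled libraries (exact p = 0.1). *Ppargc1a* stayed the most abundant coactivator in all 6 libraries.

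**Figure D2:**
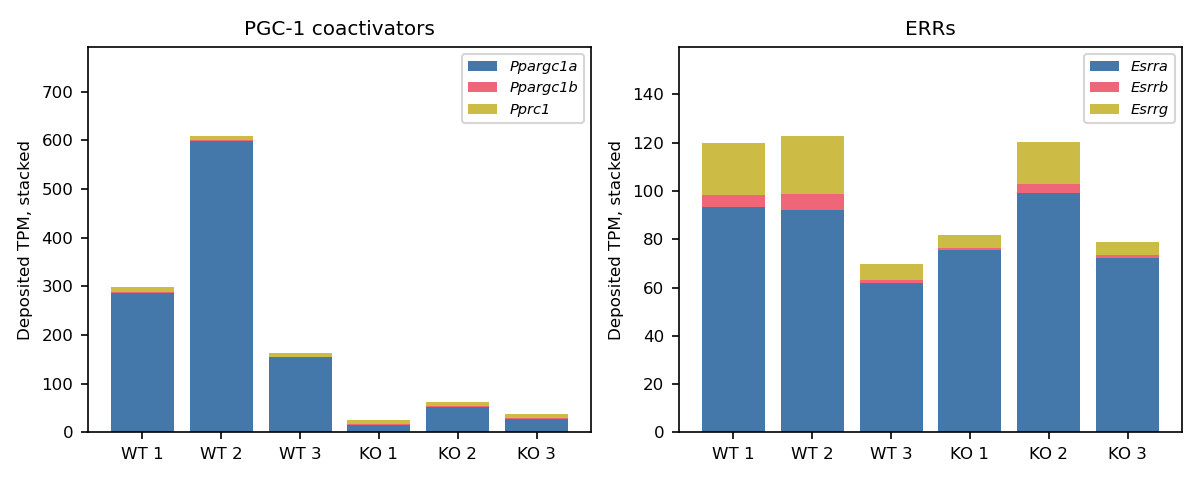
Deposited TPM of the 3 PGC-1 coactivators (left) and the 3 ERRs (right) in each library, stacked on linear axes that start at 0. The coactivator sum was 164 to 609 TPM in WT and 24.9 to 62.8 in the KO-labelled libraries, and the ERR sum was 69.6 to 123 and 78.9 to 120.2.

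*Esrra* encodes ERRα, the main ERR through which PGC-1α acts on mitochondrial genes. It was at 87.3, 91.6 and 71.9 CPM in WT and at 80.7, 112 and 81.8 in the KO-labelled libraries. The groups overlapped, with the highest value in the library labelled KO 2 and the lowest in WT 3. The log2 fold change was 0.13 (SE 0.16, adjusted p = 0.609), and the 95% interval of the fold change was 0.837 to 1.43. The sign rested on the library labelled KO 2, without which the log2 fold change was -0.03. Its exons share 73 bases with *Trmt112* on the opposite strand, whose log2 fold change was 0.52.

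*Esrrg* and *Esrrb* encode ERRγ and ERRβ, of which ERRγ is known for its high level in oxidative muscle. *Esrrg* was at 48.2, 56.3 and 18.1 CPM in WT and at 14.0, 46.1 and 14.6 in the KO-labelled libraries. *Esrrb* was at 8.86, 12.7 and 2.53 CPM in WT and at 1.86, 8.22 and 2.34 in the KO-labelled libraries. In both genes WT 1, WT 2 and the library labelled KO 2 were high and the other 3 libraries were low, so that the groups overlapped. The log2 fold change was -0.71 for *Esrrg* (SE 0.56, 95% interval -2.03 to 0.60, adjusted p = 0.396) and -0.95 for *Esrrb* (SE 0.71, 95% interval -2.60 to 0.70, adjusted p = 0.368). Without the library labelled KO 2 the values were -1.50 (adjusted p = 0.0892) and -1.92 (adjusted p = 0.108).

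The slow-fiber score, the mean log2 CPM of 11 genes of the slow contractile apparatus, had the same order of high and low libraries. It was 7.95, 7.79 and 3.39 in WT and 4.59, 7.25 and 5.06 in the KO-labelled libraries. The summed level of these genes ranged from 197 to 4479 CPM in WT and from 449 to 2609 in the KO-labelled libraries. All 11 had a negative log2 fold change (median -1.26), and 0 passed the test. The 3 libraries with the highest score also held the 3 highest values of *Esrra* and *Ppargc1b*. With the score as a covariate, the log2 fold change was -0.45 for *Esrrg* (SE 0.22, adjusted p = 0.167), -0.56 for *Esrrb* (SE 0.27, adjusted p = 0.160), 0.01 for *Ppargc1b* (SE 0.17, adjusted p = 0.982) and -3.06 for *Ppargc1a* (SE 0.39, adjusted p = 0.00461). In the fit on group alone *Ppargc1a* was at -3.28, and the part of fiber content in its decrease was not tested. Red cell genes had a like order, with a summed level of 46.6 to 297 CPM in WT and 80.2 to 181 in the KO-labelled libraries. *Hbb-bt*, a beta-globin gene singled out after its values were seen, was at 55.5, 52.1 and 31.5 CPM in WT 1, WT 2 and the library labelled KO 2 and at 0 in the other 3. In these 3 (WT 3, KO 1 and KO 3) the other beta-globin gene, *Hbb-bs*, was present at 23.1, 51.9 and 38.6 CPM. Why *Hbb-bt* alone was absent was not tested, and the beta-globin level used below sums both genes. With the beta-globin level as a covariate, the log2 fold change of *Ppargc1a* was -2.94 (SE 0.47, adjusted p = 0.00965).

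**Figure D3:**
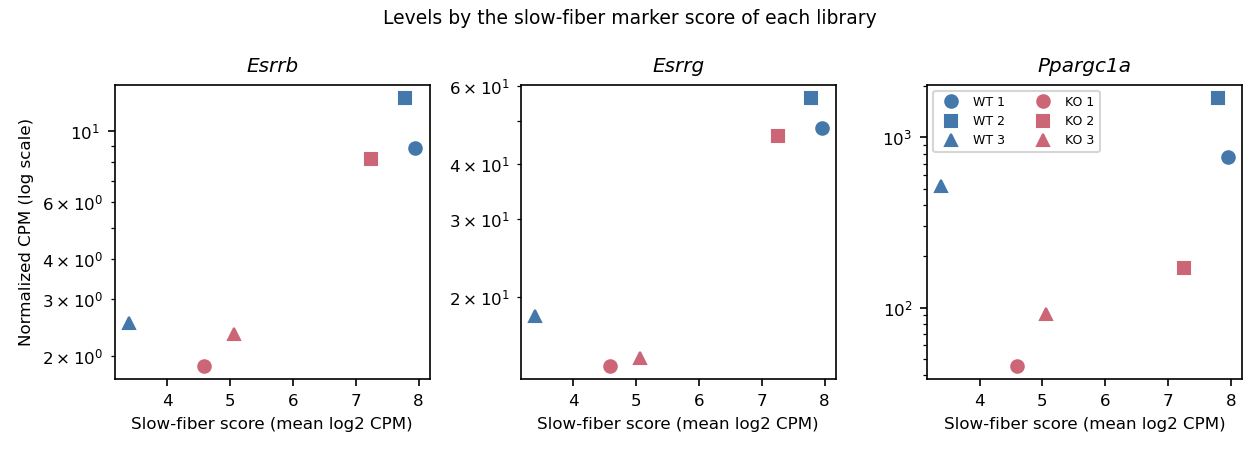
Normalized CPM (log axis) of *Esrrb*, *Esrrg* and *Ppargc1a* against the slow-fiber score (mean log2 CPM of 11 genes) in the 6 libraries. *Esrrb* and *Esrrg* were high in the 3 libraries with scores from 7.25 to 7.95 and low in the 3 with scores from 3.39 to 5.06, whereas *Ppargc1a* was higher in WT 3, at a score of 3.39, than in any KO-labelled library.

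Per length, *Esrra* was the leading ERR in every library, with 77.8%, 75.1% and 89.0% of the summed TPM of the 3 receptors in WT and 92.2%, 82.6% and 91.8% in the KO-labelled libraries (exact permutation test, p = 0.2). *Esrrg* made up between 6.71% and 19.5% and *Esrrb* between 1.13% and 5.47%. The sum was 120.1, 123 and 69.6 TPM in WT and 81.9, 120.2 and 78.9 in the KO-labelled libraries (exact p = 0.9). Among all 10 members *Ppargc1a* ranked first by TPM in every WT library, whereas *Esrra* ranked first in every KO-labelled one, where *Ppargc1a* was in places 4, 2 and 3. In each WT library *Esrra* and *Tfb2m* came next, at 61.9 to 93.4 and 53.5 to 67.9 TPM. At the other end, *Ppargc1b* and *Esrrb* took the last places, and their ranges of 1.11 to 3.14 and 0.924 to 6.72 TPM overlapped.

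NRF1 and GABPA are DNA-binding factors at the promoters of many nuclear genes for mitochondria, and GABPA is the ETS-domain subunit of GABP, also called NRF-2. *Nrf1* was at 10.7, 12.5 and 11.1 CPM in WT and at 13.0, 13.7 and 14.9 in the KO-labelled libraries. All 3 KO-labelled values lay above the WT values, but the difference did not pass the test (1.21-fold, 95% interval 0.997 to 1.47, adjusted p = 0.146). *Gabpa* was at 45.5, 45.5 and 40.0 CPM in WT and at 33.5, 34.8 and 34.2 in the KO-labelled libraries. It fell by 0.35 on the log2 scale (SE 0.10, adjusted p = 0.0493), from 43.6 ± 3.19 to 34.1 ± 0.658 CPM (SD, n = 3 each). This call was at the edge of the threshold and was lost under 11 of 17 alternatives. Among these were 5 of the 6 fits without 1 library (adjusted p from 0.115 to 0.170, WT 3 being the exception at 0.0134) and removal of the GC trend found over all genes (log2 fold change -0.07, adjusted p = 0.669). *Gabpa* also shares 397 exonic bases with *Atp5j*, a more abundant gene on the opposite strand that went from 426 to 322 CPM (log2 fold change -0.40). The part of its reads in the result was not tested.

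TFAM packages mtDNA and, with TFB2M and the polymerase POLRMT, starts its transcription. *Tfam* was at 44.6, 48.4 and 52.8 CPM in WT and at 56.2, 52.9 and 55.6 in the KO-labelled libraries. The groups lay apart only by the distance between 52.8 and 52.9, and the difference did not pass (log2 fold change 0.18, SE 0.10, 95% interval -0.06 to 0.42, adjusted p = 0.258). *Tfb2m* was at 61.8, 73.9 and 68.0 CPM in WT and at 42.8, 46.0 and 44.0 in the KO-labelled libraries. The groups lay well apart, with means of 67.9 ± 6.05 and 44.2 ± 1.62 CPM (SD, n = 3 each). *Tfb2m* fell by 0.62 on the log2 scale (SE 0.11, 95% interval -0.86 to -0.37, adjusted p = 0.0163). The adjusted p was 0.0617 without WT 2, 0.0718 without the library labelled KO 1 and 0.0836 without that labelled KO 3. *Tfam* and *Tfb2m*, which act at the same mtDNA promoters, thus had log2 fold changes of opposite sign, of which only that of *Tfb2m* passed.

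The fold changes over all genes rose with GC content (Spearman's rho 0.334 over 13715 genes, a description across genes that are not independent). The longest transcripts of *Gabpa*, *Ppargc1a* and *Tfb2m* had 41.4%, 41.7% and 42.5% GC, those of *Pprc1* and *Ppargc1b* 55.9% and 57.8%, and the median over the tested genes was 49.8%. With the trend removed, *Ppargc1a* was the 1 member that was lower at an adjusted p under 0.05 (log2 fold change -3.01, adjusted p = 0.0363), against 3.54% of genes. *Tfb2m* was at -0.37 (adjusted p = 0.0729), and *Nrf1* and *Tfam* were at 0.42 (adjusted p = 0.0741) and 0.34 (adjusted p = 0.0891). With the slow-fiber score as a further covariate, *Ppargc1a* was at -2.79 (adjusted p = 0.00940) and *Tfb2m* at -0.37 (adjusted p = 0.0426), both lower, while *Nrf1* was at 0.42 (adjusted p = 0.0479) and *Tfam* at 0.31 (adjusted p = 0.0396), both higher. In that fit 9.18% of all genes were lower and 9.11% higher. Because the GC trend itself lies between the groups, its technical and its genotype-linked parts cannot be told apart.

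**Figure D4:**
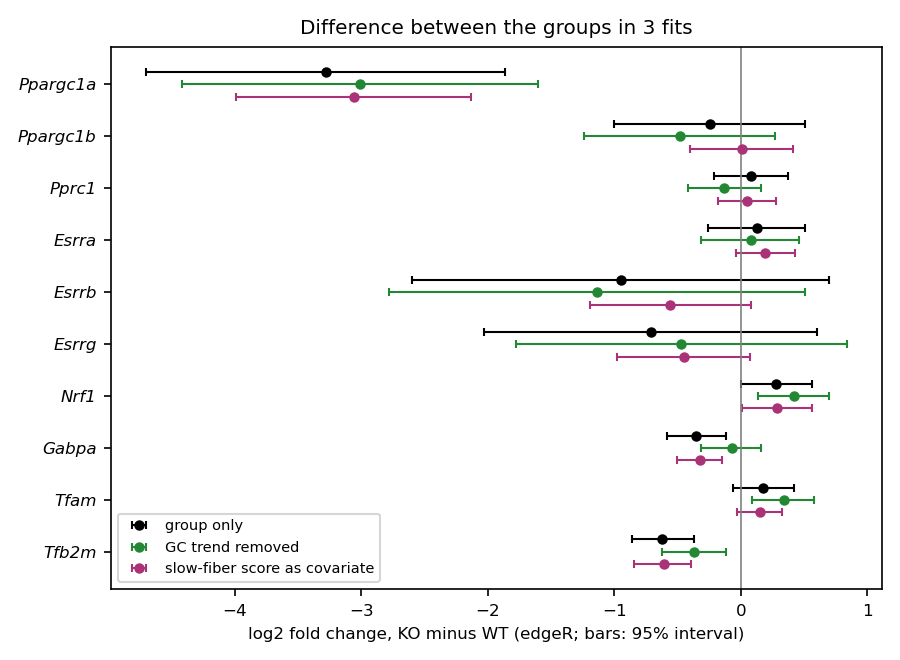
Log2 fold change of each gene, KO-labelled minus WT, with its 95% interval, in the fit on group alone (black), after removal of the GC trend (green) and with the slow-fiber score as a covariate (purple). *Ppargc1a* lay between -3.28 and -3.01 in the 3 fits, *Gabpa* moved from -0.35 to -0.07 with the GC trend removed, and the intervals of *Esrrb* and *Esrrg* narrowed with the score.

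Whether the partners and paralogs followed *Ppargc1a* was also described by the log2 ratio of each gene's count to that of *Ppargc1a* within a library, which does not depend on the scaling of libraries. For *Esrra* this ratio was -3.13, -4.22 and -2.84 in WT and 0.82, -0.60 and -0.17 in the KO-labelled libraries. Counts of *Esrra* were thus far below those of *Ppargc1a* in WT and close to them in the KO-labelled libraries. Had a member changed by the same factor as *Ppargc1a*, the difference of its ratio between the groups would be 0. The differences ran from 2.3 for *Esrrb* and 2.5 for *Esrrg* through 2.68 for *Tfb2m*, 2.94 for *Gabpa*, 3.13 for *Ppargc1b*, 3.38 for *Pprc1*, 3.41 for *Esrra* and 3.47 for *Tfam* to 3.57 for *Nrf1*. In all 9 genes the ratio was higher in all KO-labelled libraries than in any WT one (exact permutation test, two-sided, p = 0.1 each and after adjustment over the 9, the smallest that the design allows). The same held for 96.7% of the other 13800 genes tested, all with the same denominator, so it is no result about these 9 genes. In edgeR's fit, the 95% interval of *Ppargc1a* itself (-4.70 to -1.86) overlapped those of *Esrrb* (-2.60 to 0.70) and *Esrrg* (-2.03 to 0.60), whereas those of the other 7 genes lay above it.

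The stretches just upstream of the transcription starts were read from RefSeq (GRCm38.p6), as 14 windows of 9 members. No window of *Ppargc1b* was read, so its upstream stretch was not searched. Shown here, 5′ to 3′ on the strand of the gene, are the 250 bases before the start for the 3 genes that were lower (*Ppargc1a* at chr5:51567726-51567975, minus strand; *Gabpa* at chr16:84834874-84835123, plus strand; *Tfb2m* at chr1:179546277-179546526, minus strand) and, as the gene of the set with a GABP match, for *Tfam* (chr10:71238045-71238294, minus strand). Capitals mark matches to the motifs searched.
Ppargc1a: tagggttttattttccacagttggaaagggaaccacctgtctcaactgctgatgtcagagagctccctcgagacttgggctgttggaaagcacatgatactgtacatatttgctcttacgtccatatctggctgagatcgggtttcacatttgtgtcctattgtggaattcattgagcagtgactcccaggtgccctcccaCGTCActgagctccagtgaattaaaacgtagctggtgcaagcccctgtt
Gabpa: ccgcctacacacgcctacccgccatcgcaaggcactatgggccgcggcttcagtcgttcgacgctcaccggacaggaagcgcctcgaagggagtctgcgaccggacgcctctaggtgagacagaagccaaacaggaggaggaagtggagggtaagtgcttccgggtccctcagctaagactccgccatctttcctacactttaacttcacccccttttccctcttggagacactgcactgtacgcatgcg
Tfb2m: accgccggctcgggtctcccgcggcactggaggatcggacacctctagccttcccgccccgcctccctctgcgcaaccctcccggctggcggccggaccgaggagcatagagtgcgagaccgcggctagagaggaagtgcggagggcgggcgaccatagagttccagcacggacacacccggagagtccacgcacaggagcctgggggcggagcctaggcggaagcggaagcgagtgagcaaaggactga
Tfam: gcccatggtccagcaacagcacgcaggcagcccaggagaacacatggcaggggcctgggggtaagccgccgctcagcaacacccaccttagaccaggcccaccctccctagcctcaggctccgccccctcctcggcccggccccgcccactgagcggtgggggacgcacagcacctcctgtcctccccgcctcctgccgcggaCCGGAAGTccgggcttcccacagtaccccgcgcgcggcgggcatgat

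The letters searched on both strands were the cAMP response element TGACGTCA bound by CREB, its half-site TGACG (which lies within the former), the ERR site AAGGTCA, the NRF-1 core GCATGCGC and the GABP site CCGGAAGT. *Ppargc1a* held a half-site, written CGTCA on its own strand, 49 bases upstream of the start, and *Esrrb* held a pair at 158 and 117 bases. The half-site is common, being present in 17.8% of 32851 windows of this length. No member's window held the full element (1.55% of windows) or the ERR site (4.08%). *Esrra* held the NRF-1 core 34 bases upstream (2.26% of windows), and *Tfam* the GABP site 47 bases upstream (2.88%). The windows of *Gabpa* and *Tfb2m* held none of these letters. The window of *Ppargc1a* is at a start inside its locus, which spans chr5:51454249-52115853. It was the only window of this gene, so any other start in the locus was not searched for these motifs. Windows of other members also lay inside their loci. Among them were that of *Tfam* (locus chr10:71225468-71238328) and most of that of *Gabpa* (locus chr16:84834891-84863783).

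The gene whose pattern over the 6 libraries was most like that of *Ppargc1a* was *Maff*, a small Maf transcription factor, with a mean absolute difference of 0.288 between the centred log2 levels. It was at 38.1, 86.2 and 17.5 CPM in WT and at 2.19, 6.42 and 2.61 in the KO-labelled libraries. Next were *Plk3*, a polo-like kinase (0.328), *Tmem82* (0.363), *Pank1*, a pantothenate kinase of coenzyme A synthesis (0.378), and *Mt1*, a metallothionein (0.382). Their levels shared the peak in WT 2 and, within the KO-labelled group, the peak in KO 2. Of the 13800 genes ranked, the nearest other members were *Esrrb* in place 664, *Esrrg* in place 1139 and *Tfb2m* in place 1845. *Nrf1* was the farthest, in place 9725. Likeness was measured over 6 libraries, and these genes were chosen for it, so it is a description.

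Upstream of *Ppargc1a*, 14 inducers were measured, among them the CREB and MEF2 factors, the CRTC coactivators of CREB and the kinases AMPK and p38. Of these, 2 were lower, 1 was higher and 11 did not pass (median log2 fold change -0.09). In this list and those that follow, the counts stand beside 8.39% of all genes lower and 7.85% higher, and with lists of this size shares of a few genes are no result about a list. *Creb1*, which binds the cAMP response element, fell from 29.4 ± 4.36 to 15.1 ± 1.94 CPM (log2 fold change -0.96, SE 0.15, adjusted p = 0.0144), and *Sirt1*, a deacetylase of PGC-1α, from 18.0 ± 0.815 to 10.7 ± 1.59 CPM (-0.75, SE 0.14, adjusted p = 0.0178). *Crtc1* rose from 9.32 ± 2.31 to 18.4 ± 2.03 CPM (0.98, SE 0.19, adjusted p = 0.0213). With the GC trend removed, the adjusted p of these 3 genes was 0.0524, 0.0521 and 0.0567. Of the 6 fits without 1 library, *Creb1* kept its call in 3, *Sirt1* in 1 and *Crtc1* in 2.

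Among 13 coregulators 1 was lower and 0 higher (median -0.16). This was *Nrip1*, which encodes the corepressor RIP140 of oxidative genes, at 47.8, 43.5 and 47.0 CPM in WT and 29.0, 27.2 and 22.8 in the KO-labelled libraries. It fell by 0.81 on the log2 scale (SE 0.12, adjusted p = 0.0132) and kept an adjusted p under 0.05 with the GC trend removed (-0.60, adjusted p = 0.0355) and in 4 of the 6 fits without 1 library. Of 9 other nuclear receptors that PGC-1α can coactivate, 3 were lower and 0 higher (median -0.61). *Ppard*, a fatty acid receptor abundant in muscle, fell from 37.6 ± 5.06 to 24.6 ± 1.34 CPM (-0.61, adjusted p = 0.0225), *Thrb*, a thyroid hormone receptor, from 30.7 ± 1.21 to 19.5 ± 2.57 CPM (-0.65, adjusted p = 0.0197), and *Rora* from 192 ± 44.9 to 106 ± 2.91 CPM (-0.85, adjusted p = 0.0231). With the GC trend removed *Ppard* alone of the 3 passed (-0.73, adjusted p = 0.0306). Of the 6 fits without 1 library, *Ppard* kept its call in 1, *Thrb* in 2 and *Rora* in 2. The 2 GABP partners *Gabpb1* and *Gabpb2* did not pass, with log2 fold changes of -0.42 and 0.30.

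The 19 nuclear genes of mtDNA replication, transcription and nucleotide supply went both ways, with 2 lower, 2 higher and a median of -0.16. *Mterf3*, a negative regulator of mtDNA transcription, fell from 20.9 ± 2.75 to 11.6 ± 1.18 CPM (log2 fold change -0.85, SE 0.14, adjusted p = 0.0155), and *Rrm2b*, a subunit of ribonucleotide reductase, from 46.1 ± 2.89 to 30.2 ± 2.75 CPM (-0.61, SE 0.11, adjusted p = 0.0178). *Polrmt*, the mitochondrial RNA polymerase that works with TFB2M, rose from 24.4 ± 3.43 to 41.4 ± 4.07 CPM (0.76, SE 0.14, adjusted p = 0.0179), and *Tk2*, the mitochondrial thymidine kinase, from 3.09 ± 0.343 to 5.66 ± 0.682 CPM (0.87, SE 0.18, adjusted p = 0.0234). With the GC trend removed *Tk2* passed (adjusted p = 0.0490) and the other 3 did not. Of the 6 fits without 1 library, *Rrm2b* kept its call in 1 and *Mterf3*, *Polrmt* and *Tk2* in 2 each. *Polrmt* and *Tfb2m*, partners at the mtDNA promoters, passed the main test in opposite directions. Neither passed with the GC trend removed (0.5, adjusted p = 0.0705, and -0.37, adjusted p = 0.0729, edgeR). None of the 13 protein-coding genes of mtDNA was found in the deposited table under the symbols searched, so they were not analysed.

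Of 28 target genes of PGC-1α and the ERRs in muscle, 3 were lower, a count near the 8.39% of all genes, 0 were higher and 25 did not pass. The median was -0.37, beside -0.02 over all genes tested, and 21 had a negative log2 fold change. The share of all genes with a negative sign was not computed, so this sign count is no result about the list. The part of fiber content in these signs was not tested. *Vegfa*, an angiogenic growth factor, was at 462, 562 and 283 CPM in WT and at 108, 219 and 183 in the KO-labelled libraries. It was the most decreased of the 3 that passed (-1.36, SE 0.33, adjusted p = 0.0340) and the only one to pass with the GC trend removed (-1.44, adjusted p = 0.0451). *Cycs*, which encodes cytochrome c, fell from 555 ± 84.1 to 329.6 ± 41.7 CPM (-0.75, SE 0.16, adjusted p = 0.0266), and *Sod2*, the mitochondrial superoxide dismutase, from 386 ± 70.0 to 231 ± 44.8 CPM (-0.74, SE 0.19, adjusted p = 0.0426). Each of these 3 genes kept its call in 1 of the 6 fits without 1 library. The members that lead this list do not act in one pathway: cytochrome c carries electrons in the respiratory chain, and *Vegfa* acts outside the mitochondrion.

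**Figure D5:**
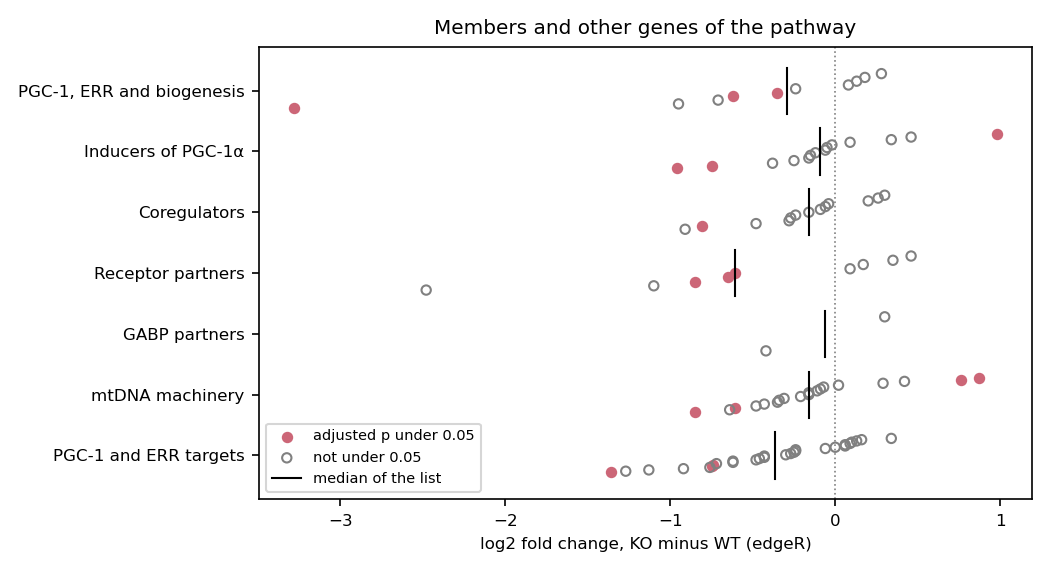
Log2 fold change, KO-labelled minus WT, of the 10 genes (top row) and of the genes of 6 pathway lists; filled points had an adjusted p under 0.05 and black lines are medians. *Ppargc1a* at -3.28 lay below every other gene shown, and the medians of the lists ran from -0.61 for receptor partners to -0.06 for GABP partners.

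Markers of other cell types were examined because several members are also active outside muscle fibers. Adipocyte genes summed to 124 to 259 CPM in WT and 163 to 298 in the KO-labelled libraries, with 6 of 7 positive, 0 past the test and a median of 0.81. Of 3 brown adipocyte genes, a cell type with high *Ppargc1a*, *Elovl3* was at 0 in all 6 libraries and *Ucp1* in 5, and the sum stayed between 0.218 and 1.23 CPM. Macrophage genes (31.5 to 93.8 against 40.0 to 50.3 CPM), fibroblast genes (468 to 864 against 547 to 576 CPM) and endothelial genes (147 to 269.8 against 178 to 185 CPM) overlapped between the groups, and 0 of these 18 passed. None of the muscle or red cell genes passed either, out of 6 and 5. The part of these cells in the results was not tested. Only the fits with the slow-fiber or beta-globin covariate held such marker levels.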

How the data were processed

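RNA-seq of GAS muscle was analysed in 3 WT and 3 KO-labelled libraries, grouped by the sample labels. The labels give separate samples but do not say outright that each came from its own animal; p-values measure the spread between these samples. The authors deposited 1 table on mm10 (GRCm38) with, for each of 24532 genes, read counts from StringTie, not normalized between libraries. The authors also deposited FPKM values, scaled to gene length and depth, and TPM values, scaled to a fixed sum per library. The submitters' processing notes name HISAT2 2.1.0, Bowtie2 2.3.4.1 and StringTie 2.1.3b, whereas the reporting summary names STAR. Methods and labels name different library kits, and methods and reporting summary different *Sirt6* flox lines.

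The main test was run on counts in edgeR 4.0.16 (R 4.3.3): filterByExpr (13801 genes kept, 7342 had no count), TMM (factors 0.909 to 1.11), a quasi-likelihood fit on group, and Benjamini-Hochberg adjustment over all genes tested at 0.05. The common biological coefficient of variation was 24.1%. Levels are normalized CPM. Intervals are 95% and come from the fit. Exact tests were two-sided permutations of the 6 libraries; count ratios had 0.5 added to each count. The edgeR and DESeq2 tests and the removal of the GC trend were tried on simulated counts. Those counts held neither a GC trend nor differences in fiber type, and the other fits and the exact tests were not simulated. The GC trend was removed with a lowess per library (span 0.3) over GENCODE M21 transcripts, known for 99.4% of genes.

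The alternatives were DESeq2 1.42.0 (Wald test, or its size factors), other filters on low counts, limma 3.58.1 on log2 of quantile-normalized FPKM with pseudocounts of 1 and 0.1, a replicate block, each library left out, the GC trend, and slow-fiber or beta-globin covariates; the GC trend together with the slow-fiber score was added after the data were seen. Members, lists and rules were chosen with earlier results of these data known. Named are the 10 members, *Sirt6*, *Myl1*, the genes of each list at an adjusted p under 0.05, and the 5 genes with the pattern nearest to that of *Ppargc1a*. Other names were chosen after their values were seen or stand for a list. One marker list is not reported here.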

Additional observations from a re-analysis of the deposited data

How the results depend on the processing

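Of 170 alternative log2 fold changes of the members, 144 kept their direction and their side of the threshold, 19 no longer passed, 2 newly passed and 5 changed sign. The count ratios to *Ppargc1a* have no threshold that this design can pass. With 1 library left out at a time, the number of members lower at an adjusted p under 0.05 ranged from 0 to 3, and the log2 fold change of *Ppargc1a* from -3.84 to -2.64. Over all genes the calls in these 6 fits varied as widely, from 2 lower and 6 higher without the library labelled KO 1, 5 and 8 without KO 3, 153 and 96 without WT 2, 259 and 181 without WT 1, and 442 and 431 without KO 2 to 2219 and 2363 without WT 3. DESeq2 called 1801 lower and 1730 higher genes, against edgeR's 1158 and 1084. With the GC trend removed, 1 member was lower and *Pprc1* turned to -0.13. With the GC trend removed and the slow-fiber score as a covariate, 2 members were higher (*Nrf1* and *Tfam*), beside 9.11% of all genes, and *Pprc1* was at -0.16. *Ppargc1b* turned to 0.01 with the slow-fiber score and to 0.07 with the beta-globin level as a covariate. *Esrra* ranged from -0.03 to 0.21 with 1 library left out. None of these reversed values passed the test, and the cause was not tested. Whether the replicate numbers pair the libraries was not settled. Same-numbered libraries deviated from their group means with correlations of -0.0906, 0.218 and 0.134. The libraries labelled KO 2 and KO 3 correlated best with the WT library of their own number, and KO 1 with WT 3 (0.18). Deviations from means of 3 libraries cannot exclude a pairing. With the replicate block, 2 members were lower, *Ppargc1a* at -3.29 (adjusted p = 0.0204) and *Tfb2m* at -0.61 (adjusted p = 0.0277), and *Gabpa* lost its call (adjusted p = 0.0739). With 3 libraries per group, the 95% intervals of *Ppargc1b*, *Esrrb* and *Esrrg* still reached a 2-fold decrease.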
